A study of Rattus norvegicus with 72 samples.

Results

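The genes described here are the cytochrome P450 genes Cyp1a1, Cyp1a2 and Cyp1b1 and the feedback genes Tiparp and Ahrr, all known as targets of the aryl hydrocarbon receptor (AhR). They were chosen by name, as every probe set to which the array's annotation gives 1 of these symbols and no other, which made 5 of 14217 genes and 6 of 31099 probe sets (Tiparp has 2). They were measured in primary rat hepatocytes, liver cells isolated by collagenase perfusion and kept as a monolayer, on 72 Affymetrix arrays in 24 groups of 3. The design text names 3 genotoxic carcinogens, 3 non-genotoxic carcinogens and 2 non-carcinogens, each given at 1 dose from the day after plating, with RNA taken after 24 h and after 72 h of exposure. The study was set up to hold the responses of cultured cells against those of rat liver, and the liver data are not analysed here.

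The genotoxic carcinogens were aflatoxin B1 (19 nM), 4-(methylnitrosamino)-1-(3-pyridyl)-1-butanone (NNK, 625 µM) and 2-nitrofluorene (78 µM). The non-genotoxic carcinogens were Wy-14643 (250 µM), piperonyl butoxide (13.4 µM) and methapyrilene (8.5 µM), and the non-carcinogens were nifedipine (156 µM) and clonidine (277 µM). At each time 2-nitrofluorene, piperonyl butoxide and nifedipine shared 1 control group (D numbers 7 to 9 in the titles), and aflatoxin B1, Wy-14643 and clonidine shared another (D numbers 1 to 3). NNK (D numbers 7 to 9) and methapyrilene (D numbers 4 to 6) had control groups of their own. Every group, controls included, had serum in the medium for the first hours and then serum-free medium with hydrocortisone and insulin, and the labels name no vehicle. The labels do not say what a D number stands for.

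AhR is a transcription factor that waits in the cytoplasm with heat shock proteins, enters the nucleus once a planar ligand binds it, pairs there with ARNT and acts on genes that carry its response element. In the liver it is known for switching on the CYP1 enzymes, which oxidise aromatic hydrocarbons and aromatic amines. TIPARP, a mono-ADP-ribosyltransferase, and AHRR, a repressor that competes for ARNT, are known to hold the receptor back, so that their genes form feedback loops.

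RefSeq promoters (assembly GRCr8), 250 bases before to 50 after the gene's start, were at hand for 4 of the 5 genes, and Cyp1a1 was not among them. In RefSeq, Cyp1a1 and Cyp1a2 are neighbours on chromosome 8, with 0 other gene starts between theirs. The promoters of Cyp1a2, Cyp1b1 and Tiparp are shown because these target genes had a signal that could be tested. Capitals mark GCGTG, the core of the AhR response element, read on either strand (CACGC on the other), and in Cyp1a2, which had 0 of these, the letters TATAAA.
Cyp1a2 promoter, chr8:66978100-66978399 (minus strand): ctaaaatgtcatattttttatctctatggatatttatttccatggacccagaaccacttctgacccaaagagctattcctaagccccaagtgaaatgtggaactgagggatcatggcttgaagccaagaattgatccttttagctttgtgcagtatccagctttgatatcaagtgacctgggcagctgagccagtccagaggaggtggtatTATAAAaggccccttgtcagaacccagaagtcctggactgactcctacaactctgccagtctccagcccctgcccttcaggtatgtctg
Cyp1b1 promoter, chr6:21094315-21094614 (plus strand): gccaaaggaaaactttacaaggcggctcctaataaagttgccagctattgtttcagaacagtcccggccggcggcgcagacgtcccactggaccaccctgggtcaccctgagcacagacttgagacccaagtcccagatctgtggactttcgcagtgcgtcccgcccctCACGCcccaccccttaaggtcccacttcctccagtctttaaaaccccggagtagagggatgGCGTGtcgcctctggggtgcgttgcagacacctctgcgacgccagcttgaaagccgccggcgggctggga
Tiparp promoter, chr2:152063519-152063818 (plus strand): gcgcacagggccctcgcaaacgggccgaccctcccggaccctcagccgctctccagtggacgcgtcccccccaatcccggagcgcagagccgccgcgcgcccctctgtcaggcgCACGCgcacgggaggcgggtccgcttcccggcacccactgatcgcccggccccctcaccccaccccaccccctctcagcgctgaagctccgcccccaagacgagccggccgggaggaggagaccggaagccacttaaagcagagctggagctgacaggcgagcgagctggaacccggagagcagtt
GCGTG stood 2 times in the Cyp1b1 window, 1 of them within the longer TNGCGTG, and 1 time in that of Tiparp. The Ahrr window held it 3 times, 1 of them within TNGCGTG. Of all 33469 promoters of this length in the table, 29.7% held GCGTG on either strand, 4.89% TNGCGTG and 14.2% TATAAA. A match is a run of letters in a window of 300 bases and says nothing of binding.

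The medians of the arrays lay between 15.8 and 23.8 intensity units, and the largest correlation between any 2 of them was 0.985. The log2 ratio of the 3′ over the 5′ beta-actin signal, which rises as RNA degrades, lay in the range 0.36 to 1.11 for 62 arrays, while the remaining 10 had 1.84 to 2.71. These 10 were all 8 arrays of D number 3 and 2 more of aflatoxin B1 (the first replicate of the 24 h group, the second of the 72 h group). A culture-time score from 3936 probe sets that changed with time in the other controls moved by −0.50 ± 0.13 (SD, 4 pairs) between 24 h and 72 h at D number 3. It moved by 0.69 ± 0.24 in 23 other pairs that took no part in setting it. The D number 3 arrays thus ran against their time labels, their times below are those of the labels, and results that rest on them are given with and without them. Of 9 hepatocyte markers measured 8 were bright on every array, albumin (Alb) between 3055 and 11268 units, and the other, Cyp2e1, ran from 13.2 to 1449. The cells are a bulk sample, in which fewer cells of a type and less RNA per cell cannot be told apart.

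Cyp1a1, the classic readout of AhR activity, was the gene of the family with the largest responses, and the highest levels were under nifedipine, a calcium channel blocker and a non-carcinogen here. Its probe set (1370269_at) read 3412, 3116 and 1968 units after 24 h of nifedipine, against 219, 439 and 166 in the control. After 72 h it read 5272, 3376 and 3669 under nifedipine, against 103, 122 and 148 in the control. Every nifedipine array lay above every control array at both times. Of the 18048 probe sets tested, 3341 at 24 h and 6090 at 72 h had no overlap with control, in either direction. The difference was 3.45 ± 0.81 on the log2 scale at 24 h (SE, 3 arrays per group, 10.9-fold, limma adjusted p = 0.028) and 5.03 ± 0.81 at 72 h (32.8-fold, adjusted p = 9.65e-05). At both times this was the largest rise among the 18048 probe sets tested. The test passed 0.46% of all probe sets for nifedipine at 24 h and 3.18% at 72 h, and of the 4 members tested it passed Cyp1a1 only. The 24 h result rested on few arrays: leaving out any 1 of 4 of its 6 arrays (nifedipine replicates 1 and 2, control replicates 1 and 3) took the adjusted p to between 0.136 and 0.171, with the difference between 3.15 and 3.36. It also missed the threshold with the floor at the 10th percentile (adjusted p = 0.0609).

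2-Nitrofluorene, a nitro-aromatic hydrocarbon, gave Cyp1a1 values of 2513, 2387 and 639 after 24 h and of 1739, 2516 and 1318 after 72 h, against the same control values as for nifedipine. All of its arrays were above all control arrays at both times. A lack of overlap, in either direction, was seen for 4186 of the 18048 probe sets at 24 h and 4043 at 72 h. Cyp1a1 rose by 3.87 ± 0.81 at 72 h (14.6-fold, adjusted p = 0.00515), the fifth largest rise on the array. At 24 h the difference was 2.64 ± 0.81 (6.21-fold) with an adjusted p of 0.103, and replicate 3 was the lowest of the exposed arrays. With 16 added to each value in place of the floor, the 24 h adjusted p was 0.0285. With the D number as a block, which pairs exposed and control arrays, the 24 h adjusted p was 0.0463, and 0.0152 with the D number within each time. The test passed 1.13% of all probe sets at 24 h and 0.809% at 72 h for 2-nitrofluorene, and Cyp1a1 was the 1 member among those at 72 h.

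Piperonyl butoxide, an insecticide synergist known as an inhibitor of cytochrome P450 enzymes, gave Cyp1a1 values of 957, 1863 and 595 at 24 h and of 1523, 1059 and 767 at 72 h. These too were all above the shared control, by 2.02 ± 0.81 at 24 h and 3.13 ± 0.81 at 72 h. At 72 h this was the second largest rise of all probe sets, yet neither difference passed (both adjusted p = 1, unadjusted p from the same limma fit 0.0163 and 0.000329). For piperonyl butoxide the test passed 0.0887% of all probe sets at 24 h and 0 at 72 h, where 196 had an unadjusted p under 0.05. Its arrays did not overlap with the control, in either direction, for 2437 of the 18048 probe sets at 24 h and 1713 at 72 h. In a fit on the piperonyl butoxide and control arrays alone, where the spread of no other group enters, the 72 h difference had an adjusted p of 0.0173. Nifedipine, 2-nitrofluorene and piperonyl butoxide share their control arrays, so a low or high control array moves all of their differences together.

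**Figure D1:**
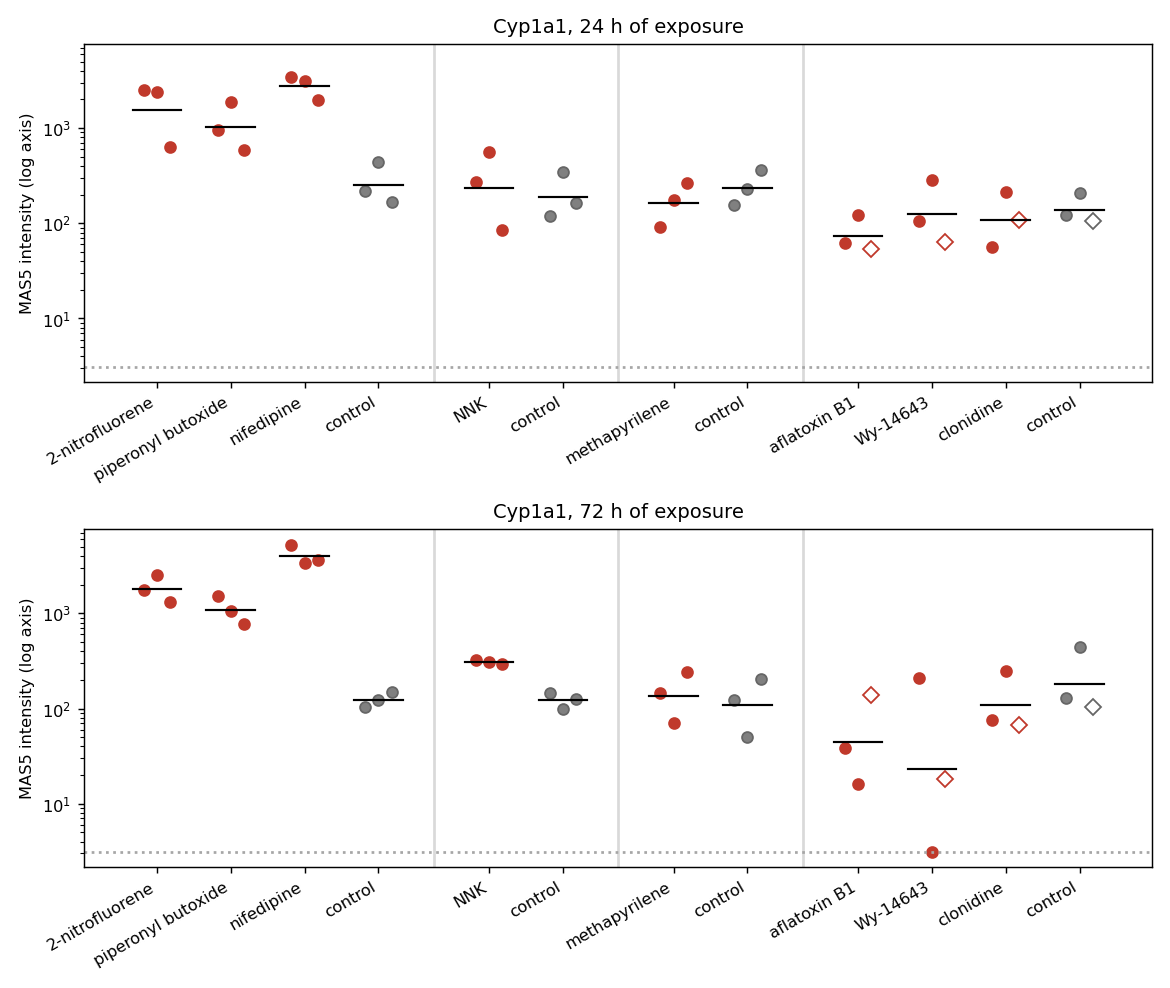
Cyp1a1 intensity on each array (log axis) after 24 h (upper panel) and 72 h (lower panel), compounds in red and the control of each set in grey to their right. Open diamonds are arrays of D number 3, bars are geometric means of the 3 arrays, and the dotted line is the floor of 3.12 units, at which 1 array is drawn. All arrays of nifedipine, 2-nitrofluorene and piperonyl butoxide lie above their control, and at 72 h those of NNK do as well.

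The other 5 compounds gave smaller or uneven Cyp1a1 values. NNK, a nitrosamine from tobacco, gave 322, 306 and 291 units at 72 h, against 146, 98.3 and 126 in its control. The Cyp1a1 arrays did not overlap, as was so for 5122 of the 18048 probe sets, in either direction. The difference was 1.33 ± 0.81 (2.51-fold) and did not pass (adjusted p = 0.456), while in a fit on these 6 arrays and no others it had an adjusted p of 0.0107. At 24 h NNK read 270.1, 561 and 84.3, against 119.7, 345 and 162, which overlap (0.31 ± 0.81, adjusted p = 0.991). Methapyrilene, an antihistamine, read 90.8, 176 and 267 at 24 h, against 154, 229 and 366 in its control, and 146, 69.8 and 240.2 at 72 h, against 124, 50.0 and 205. Its arrays overlapped with the control at both times (−0.53 ± 0.81 and 0.32 ± 0.81, both adjusted p = 1). The shares of all probe sets that passed were 0.92% and 3.32% for NNK at 24 h and 72 h. They were 0 and 0 for methapyrilene, where 413 and 322 probe sets had an unadjusted p under 0.05.

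Wy-14643 is known for activating PPARα, a nuclear receptor for fatty acids. Cyp1a1 under it read 209.7, 0.600 and 18.4 units at 72 h, against 129.7, 440.5 and 103 in the shared control. The second of these arrays was under the floor, the first was above 2 of the 3 control arrays, and the groups overlapped. The second array also had the lowest median (15.8 units) and the largest share of values at the floor (23.9%) of all 72 arrays, and the part of this in the result was not tested. The difference was −2.98 ± 0.81 (adjusted p = 0.0147), which passed, among 7.31% of all probe sets. Without Wy-14643 replicate 2 it was −1.54 (adjusted p = 0.424) and without control replicate 2 it was −2.33 (adjusted p = 0.14). In a fit on these arrays alone the adjusted p was 0.661, and with 16 added to each value in place of the floor the difference was −1.98 (adjusted p = 0.0536). Without the D number 3 arrays it was −3.22 (adjusted p = 0.0307). At 24 h Wy-14643 read 105, 287 and 64.0, against 122, 206 and 105 in the control (−0.15 ± 0.81, adjusted p = 0.969), where 0.0443% of all probe sets passed.

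Aflatoxin B1, a mould toxin, gave Cyp1a1 values of 61.4, 124 and 53.6 at 24 h and of 38.5, 16.3 and 138 at 72 h. The control, shared with Wy-14643, had the values given above. The differences were −0.90 ± 0.81 (adjusted p = 0.721) and −2.03 ± 0.81 (adjusted p = 0.165), with overlap at both times. The highest of the 72 h aflatoxin B1 arrays was that of D number 3, and without the D number 3 arrays the difference was −3.26 (adjusted p = 0.0228). Clonidine, an α2-adrenergic agonist, gave 56.1, 212 and 109 at 24 h and 75.2, 249.9 and 66.6 at 72 h. It overlapped with the control at both times (−0.34 ± 0.81 and −0.74 ± 0.81, adjusted p = 0.997 and 1). The lowest control value was 105 at 24 h and 103 at 72 h, and at 72 h each clonidine array was below the control array of its D number. The test passed 3.33% and 4.91% of all probe sets for aflatoxin B1 and 0.0166% and 0.0332% for clonidine, at 24 h and 72 h.

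Each compound was given at 1 dose, and no 2 doses were alike, so the compounds' effects (compound minus own control) are set side by side as measured at these doses. Ordered by the Cyp1a1 effect at 72 h, nifedipine came first, then 2-nitrofluorene, piperonyl butoxide, NNK, methapyrilene, clonidine, aflatoxin B1 and Wy-14643. None of the 14 steps between neighbours in this order and in that at 24 h passed the test (lowest adjusted p = 0.452). The effect of nifedipine minus that of 2-nitrofluorene was 0.82 at 24 h (95% interval −0.82 to 2.45) and 1.17 at 72 h (−0.46 to 2.80). That of 2-nitrofluorene minus that of piperonyl butoxide was 0.62 (−1.01 to 2.25) and 0.74 (−0.89 to 2.37). The intervals are wide and do not show that these compounds acted alike. Of the 28 pairs at each time, 1 passed at 24 h and 8 at 72 h for Cyp1a1, and 8 of these 9 had aflatoxin B1 or Wy-14643 as the lower compound. At 24 h the effect of aflatoxin B1 minus that of nifedipine was −4.35 (adjusted p = 0.0312, and 0.0586 without the D number 3 arrays). At 72 h the effect of nifedipine exceeded that of clonidine, the other non-carcinogen, by 5.78 (adjusted p = 0.0365), a difference that missed the threshold without the D number 3 arrays (5.84, adjusted p = 0.102). It also missed the threshold when any 1 of 10 of its 12 arrays was left out (adjusted p up to 0.177). The effect of NNK minus that of Wy-14643 (4.31, adjusted p = 0.0345) missed it for 9 of 12 (up to 0.236), and the 24 h difference of aflatoxin B1 and nifedipine for 7 of 12 (up to 0.0977). At 72 h piperonyl butoxide against Wy-14643 missed it without Wy-14643 replicate 2 (adjusted p = 0.0739). Against aflatoxin B1 it did so without aflatoxin B1 replicate 2 or control replicate 2 (up to 0.0835). Nifedipine and 2-nitrofluorene against either of these 2 compounds passed at 72 h with any 1 array left out.

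Averaged over the classes of the design, the Cyp1a1 effect of the 6 carcinogens minus that of the 2 non-carcinogens was −1.54 ± 0.51 at 72 h (adjusted p = 0.0787) and −0.99 ± 0.51 at 24 h (adjusted p = 0.562). The mean of the non-carcinogens joins nifedipine, with the highest values of all, to clonidine, which did not differ beyond its spread from control. The 72 h difference passed with the D number as a block (adjusted p = 0.0426) and without the D number 3 arrays (−1.76, adjusted p = 0.0497). The genotoxic minus the non-genotoxic carcinogens gave 0.24 ± 0.54 at 24 h and 0.90 ± 0.54 at 72 h (adjusted p = 0.982 and 0.549). With all arrays and no block, 0 members passed in the class comparisons. Of all probe sets, 0.826% and 3.37% passed for carcinogens against non-carcinogens and 0.997% and 2.22% for genotoxic against non-genotoxic, at 24 h and 72 h.

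Cyp1a2 is the constitutive CYP1 enzyme of the liver, which oxidises caffeine and aromatic amines. It was above its control on every array of piperonyl butoxide and 2-nitrofluorene, but no difference from control passed. The SE pools the spread of all 24 groups and was larger than for Cyp1a1. Within the 24 h groups of piperonyl butoxide and 2-nitrofluorene, the log2 SD was 0.31 and 0.36 for Cyp1a2, against 0.83 and 1.12 for Cyp1a1. Under aflatoxin B1 at 24 h the Cyp1a2 SD was 2.41, and under nifedipine at 72 h 3.01. Without the D number 3 arrays the 72 h differences of piperonyl butoxide and 2-nitrofluorene did not pass either. The Cyp1a2 probe set (1387243_at) read 736, 1127 and 918 units after 24 h of piperonyl butoxide, against 260.2, 624 and 218 in the control. After 72 h it read 196, 120.5 and 191 under piperonyl butoxide, against 23.3, 29.2 and 33.9. The arrays did not overlap at either time, and the differences were 1.47 ± 1.02 and 2.54 ± 1.02 (both adjusted p = 1), the second with an adjusted p of 0.0173 in a fit on these arrays alone. At 72 h this was the fourth largest rise for piperonyl butoxide.

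2-Nitrofluorene gave Cyp1a2 values of 786, 1221 and 803 at 24 h and of 53.5, 96.2 and 99.5 at 72 h, again all above the shared control. The differences were 1.48 ± 1.02 and 1.49 ± 1.02 (adjusted p = 0.689 and 0.797). In a fit on these arrays alone the 72 h adjusted p was 0.0359. Nifedipine, the compound with the highest Cyp1a1, gave Cyp1a2 values of 294, 902 and 365 at 24 h, which overlapped with the control (0.48 ± 1.02, adjusted p = 0.996). At 72 h it gave 76.1, 25.1 and 1416, the last being the highest Cyp1a2 value of any array and the second lying within the control. The 72 h difference was 2.29 ± 1.02 (adjusted p = 0.221), and without nifedipine replicate 3 it was 0.62. With the D number within each time as a block its adjusted p was 0.00306. For the other 5 compounds the Cyp1a2 differences lay between −0.62 (clonidine, 72 h) and 0.35 (NNK, 24 h), with overlap in each.

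**Figure D2:**
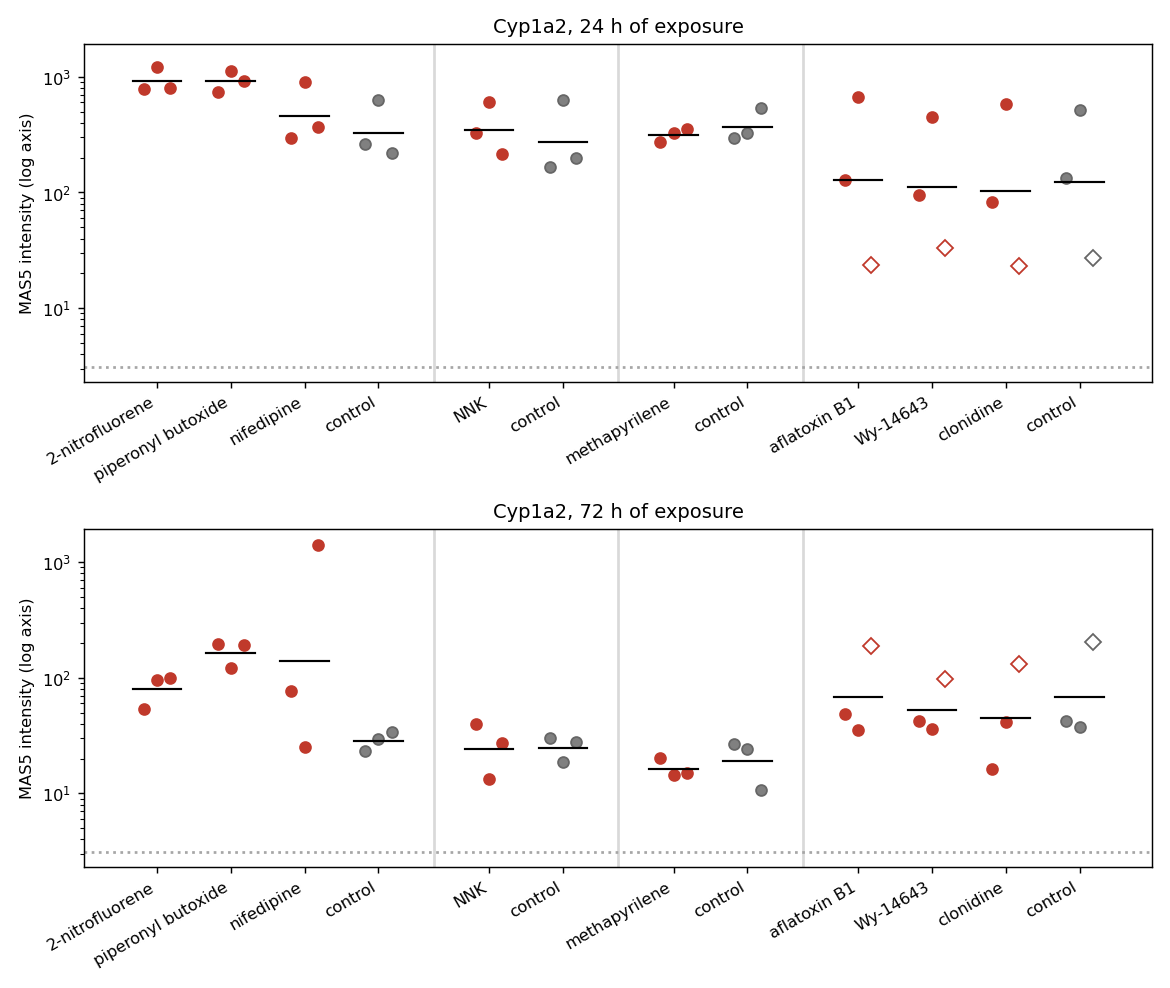
Cyp1a2 intensity on each array (log axis) after 24 h (upper panel) and 72 h (lower panel), compounds in red and the control of each set in grey to their right. Open diamonds are arrays of D number 3, bars are geometric means of the 3 arrays and the dotted line is the floor. Piperonyl butoxide and 2-nitrofluorene lie above their control at both times, and nifedipine at 72 h spreads from 25.1 to 1416.

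The largest change of Cyp1a2 was not with a compound but with time in culture. In the 12 control arrays at 72 h it had a median of 28.4 units (10.6 to 205), against 277 (27.0 to 629) in the 12 control arrays at 24 h. The highest of the 72 h values and the lowest of the 24 h values were both the control of D number 3. Without it the ranges were 10.6 to 42.0 at 72 h and 134 to 629 at 24 h, with no overlap. The mean change over the 4 control groups was −3.03 ± 0.51 (adjusted p = 4.42e-05), and −3.50 without the D number 3 arrays (adjusted p = 1.77e-08). Of all probe sets 15.9% passed in this comparison, and of the members Cyp1a2 alone.

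By control set, Cyp1a2 changed by −4.28 ± 1.02 in the methapyrilene control, by −3.53 ± 1.02 in the control of the 2-nitrofluorene set and by −3.46 ± 1.02 in the NNK control (adjusted p = 0.0319, 0.0446 and 0.0477). In the control of the aflatoxin B1 set the change was −0.84 ± 1.02 (adjusted p = 1), and −2.73 without the D number 3 arrays (adjusted p = 0.286). Within arrays of the same compound or control and D number, Cyp1a2 was lower at 72 h in 31 of 32 pairs outside D number 3, and higher at 72 h in 4 of the 4 pairs of D number 3. These pairs mix exposed and control arrays and repeat the same D numbers, so they are not independent observations. The exception among the 32 was nifedipine at D number 9, whose 72 h array had a culture-time score and an actin ratio within the range of its group. In the controls of the 2-nitrofluorene set and of NNK, arrays of equal D number did not deviate together from their group means between the times. Pairs over time there rest on the titles alone. Over the 4 control groups the mean change of Cyp1a1 was −0.60 ± 0.41, which did not pass (adjusted p = 0.343). Cyp1a1 read 50.0 to 440.5 units in the 72 h controls and 105 to 439 at 24 h. Without the D number 3 arrays it changed by −1.11 in the methapyrilene control, −1.04 in that of the 2-nitrofluorene set and −0.63 in that of NNK. In the control of the aflatoxin B1 set the Cyp1a1 change was then 0.59, and none of these passed. Over the 4 control groups Cyp1b1 (0.07 ± 0.27) and Tiparp (0.02 ± 0.09) did not pass either.

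Markers of endothelial cells fell in the same comparison, 4 of 4 tested, with a median of −1.51 on the log2 scale (−1.87 without the D number 3 arrays) against 0.02 over all probe sets. Their summed signal was 20.9 to 167 units in the 72 h controls and 34.2 to 149 in the 24 h controls, and Vwf was at or under the floor on 51 of the 72 arrays. Of the hepatocyte markers 3 of 9 fell (4 without those arrays), and their summed signal was 26665 to 46464 units at 72 h and 27363 to 57851 at 24 h. Markers of bile duct cells rose, 2 of 2 tested, with a median of 2.04 (2.28 without those arrays), and their summed signal was 360 to 1012 units at 72 h and 244 to 526 at 24 h. Of these 2, Krt7 was at or under the floor on 37 of the 72 arrays, and Epcam read 176 to 913 units. The untested Krt19 and Spp1 were at or under the floor on 38 and 54 arrays, so the summed signal was mostly that of Epcam. Of the macrophage markers 2 of 9 fell (4 without those arrays), and of the stellate cell markers 1 of 8. The part of any of these cells in the Cyp1a2 difference was not tested.

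**Figure D3:**
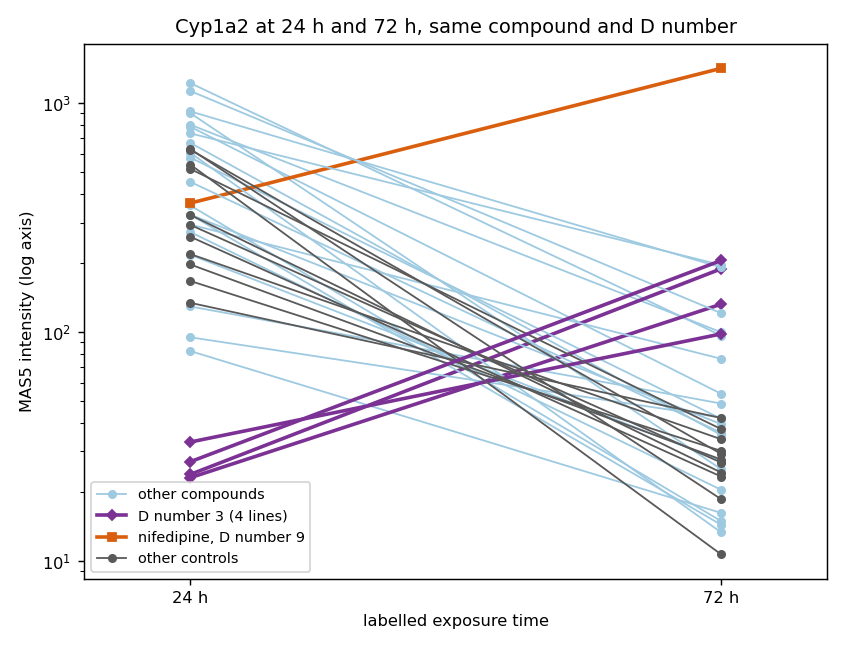
Cyp1a2 intensity (log axis) at the labelled exposure times of 24 h and 72 h, each line joining the arrays of 1 compound or control with the same D number. The 4 lines of D number 3 and that of nifedipine at D number 9 go up, and the other 31 go down.

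Cyp1b1, an extrahepatic CYP1 enzyme that metabolises oestradiol and polycyclic hydrocarbons, had low signal. Its probe set (1368990_at) read between 2.72 and 41.7 units and reached the median of the table, 19.7, on 11 of 72 arrays. No compound passed the test: the differences lay between −0.75 ± 0.53 (Wy-14643, 72 h, adjusted p = 0.464, all arrays lower than control) and 0.52 ± 0.53 (methapyrilene, 72 h, adjusted p = 1). These Wy-14643 arrays read 4.65 to 8.89 units, not far above the floor, against 9.40 to 10.4 in the control. For Wy-14643 at 72 h 2493 of the 18048 probe sets had no overlap with control, in either direction. Under nifedipine, which gave the highest Cyp1a1, Cyp1b1 read 19.5, 14.6 and 7.78 at 24 h, against 18.2, 8.01 and 17.1 in the control. At 72 h it read 11.6, 10.8 and 15.0 under nifedipine, against 8.42, 25.1 and 11.6. Its highest group mean was in the 72 h control of NNK, 28.8 ± 12.6 units (SD, n = 3), beside 26.1 ± 7.81 under NNK. The 95% interval of the difference for nifedipine at 72 h ran from −1.20 to 0.94.

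Tiparp, the gene of the mono-ADP-ribosyltransferase that marks AhR for breakdown, passed under none of the compounds with high Cyp1a1. On its brighter probe set the highest group means were those of aflatoxin B1. This probe set (1374446_at) read 156, 209.6 and 253 units after 24 h of aflatoxin B1, against 139, 156 and 116 in the control, and 165, 269 and 249 after 72 h, against 143, 131 and 125. The arrays did not overlap, although at 24 h the lowest exposed and the highest control array were nearly equal. For aflatoxin B1, 2262 of the 18048 probe sets at 24 h and 2228 at 72 h had no overlap with control, in either direction. Tiparp rose by 0.75 ± 0.18 at 72 h (1.68-fold, adjusted p = 0.00548), while the 24 h difference of 0.57 ± 0.18 did not pass (adjusted p = 0.0626). The second probe set (1385407_at) read 152, 176 and 140.4 at 72 h, against 118, 94.9 and 91.0, which is 0.63 ± 0.24 (adjusted p = 0.143), and its 24 h difference was 0.42 ± 0.24 (adjusted p = 0.463).

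The arrays of high actin ratio were 4 of the 6 aflatoxin B1 arrays and 2 of their 6 control arrays, and the highest 3 Tiparp values of aflatoxin B1 (269, 253 and 249) were on such arrays. The 2 control arrays of high actin ratio had the lowest Tiparp value of their groups (116 and 125). Without all arrays of high actin ratio, which leaves 1 aflatoxin B1 array at 72 h, the 72 h difference was 0.27 (adjusted p = 0.708). Without aflatoxin B1 replicate 2 it was 0.61 (adjusted p = 0.139), and in a fit on these 6 arrays alone its adjusted p was 0.589. Without the D number 3 arrays it was 0.62 (adjusted p = 0.0348), and the 24 h difference 0.30 (adjusted p = 0.477). Markers of macrophages were higher on the aflatoxin B1 arrays, 9 of 9 at both times with medians of 0.97 and 1.08, against −0.04 and 0.01 over all probe sets, though 0 of them passed. Without the D number 3 arrays the medians were 0.89 and 1.33, with 0 and 2 passed. The summed signal of the 10 with a probe set was 1107 to 2377 units under aflatoxin B1 at 24 h, against 476 to 1152, and 1244 to 1818 at 72 h, against 361 to 1229. The part of RNA quality or of these cells in the Tiparp difference was not tested.

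**Figure D4:**
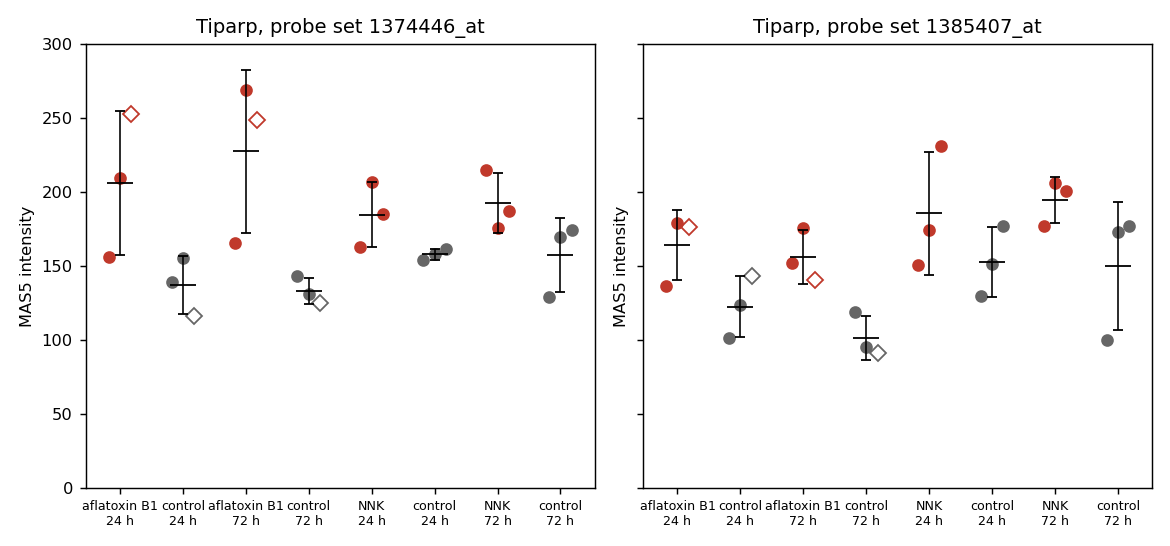
Tiparp intensity on each array for its 2 probe sets, under aflatoxin B1 and NNK (red) and in their controls (grey, to the right of each), with mean and SD of the 3 arrays as bars and D number 3 as open diamonds. On the brighter probe set (left panel) the aflatoxin B1 arrays lie above their controls at both times.

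Under the other compounds no Tiparp difference passed. On the brighter probe set, NNK read 163, 207 and 185 at 24 h, against 154, 158 and 161, and 215, 176 and 187 at 72 h, against 129, 169 and 174, with no overlap but differences of 0.22 ± 0.18 and 0.30 ± 0.18 (adjusted p = 0.835 and 0.444). For NNK 3847 of the 18048 probe sets at 24 h and 5122 at 72 h had no overlap with control, in either direction. Clonidine gave Tiparp differences of 0.40 ± 0.18 and 0.35 ± 0.18 (adjusted p = 0.659 and 1). Nifedipine, with the highest Cyp1a1, read 227, 223 and 158 at 24 h, against 137, 191 and 165 (0.30 ± 0.18, adjusted p = 0.71). At 72 h it read 155, 182 and 209.7, against 146, 175 and 150.2 (0.21 ± 0.18, adjusted p = 0.617). The 95% interval for nifedipine at 72 h, −0.15 to 0.57, holds no rise as large as a doubling. For 2-nitrofluorene and piperonyl butoxide the differences lay between −0.11 and 0.09. On the second probe set nifedipine at 24 h differed by 0.45 ± 0.24, NNK at 72 h by 0.42 ± 0.24 and Wy-14643 at 24 h by −0.44 ± 0.24 (adjusted p = 0.615, 0.417 and 0.535), which is as far from control as aflatoxin B1 was at 24 h there. The effect of aflatoxin B1 exceeded that of Wy-14643, which has the same control, by 0.69 at 72 h (adjusted p = 0.0055), and by 0.50 without the D number 3 arrays (adjusted p = 0.0814). On the second probe set it did so by 0.87 at 24 h (adjusted p = 0.0227), and by 0.82 without those arrays (adjusted p = 0.0981). The mean effect of the genotoxic minus the non-genotoxic carcinogens on Tiparp at 72 h was 0.39 ± 0.12 (adjusted p = 0.0699, and 0.0235 with the D number as a block). Over 10 alternatives this mean difference lay between 0.21 and 0.40. It passed in 2 of them, both with a D-number block, and missed the threshold without the D number 3 arrays.

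The 2 Tiparp probe sets agreed only in part, with r = 0.542 over the 24 group means, which share arrays and scaling. Ahrr, the gene of the AhR repressor, gave no usable signal. Its probe set (1380746_at) was at or under the floor of 3.12 units on 60 of 72 arrays and at most 7.64 on the rest, and it was not tested. Of the 12 arrays above the floor 8 were among the 10 of high actin ratio. Under nifedipine, where Cyp1a1 was highest, Ahrr read 2.34, 7.64 and 0.308 at 24 h, against 0.519, 0.258 and 0.450 in the control, and 0.341, 1.85 and 0.714 at 72 h, against 0.405, 0.545 and 0.248. With the filter on dim probe sets dropped, the largest Ahrr difference was 0.43 on the log2 scale (nifedipine, 24 h, adjusted p = 0.747).

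**Figure D5:**
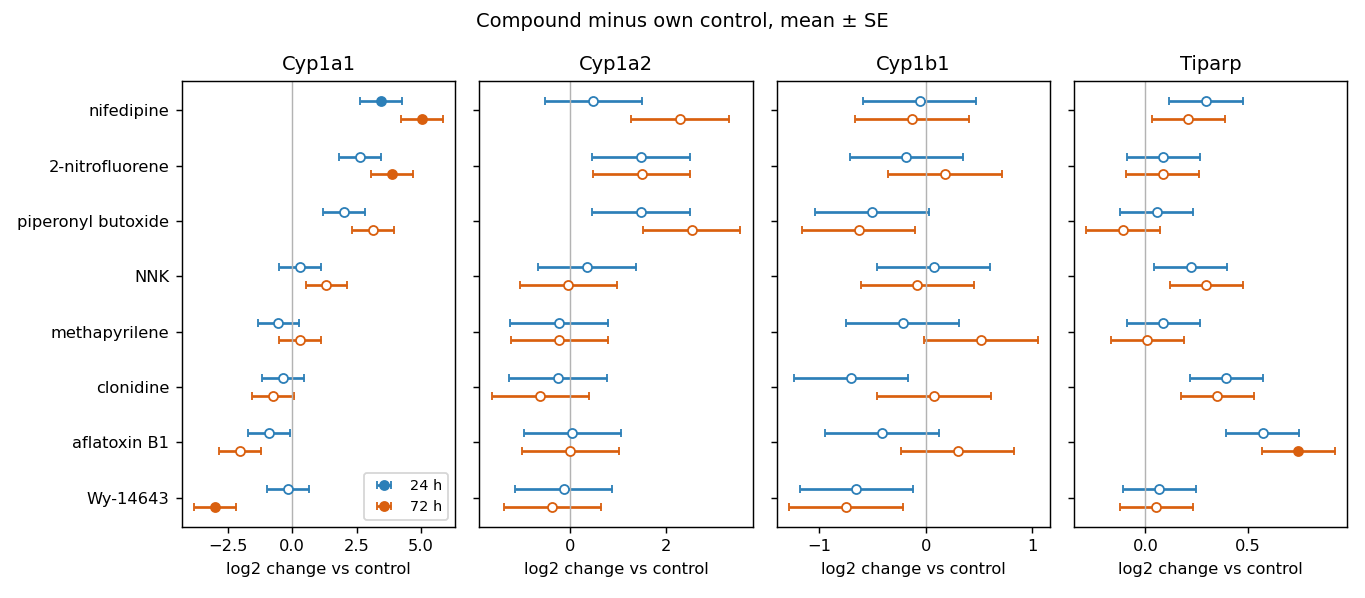
Difference of each compound from its own control for Cyp1a1, Cyp1a2, Cyp1b1 and Tiparp (brighter probe set) on the log2 scale, with SE as bars, at 24 h (blue) and 72 h (orange). Filled points passed the test. The filled points are Cyp1a1 under nifedipine at both times, 2-nitrofluorene and Wy-14643 at 72 h, and Tiparp under aflatoxin B1 at 72 h.

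No member passed the test of a change in effect between the times. The Cyp1a1 effect at 72 h minus that at 24 h was 1.58 ± 1.15 for nifedipine, 1.23 ± 1.15 for 2-nitrofluorene and 1.11 ± 1.15 for piperonyl butoxide (adjusted p = 0.873, 1 and 1), and −2.83 ± 1.15 for Wy-14643 (adjusted p = 0.704). Without Wy-14643 replicate 1 at 72 h the last passed (−4.43, adjusted p = 0.0229). The shares of all probe sets that passed were 0.116% for nifedipine, 0.0277% for NNK and 0.00554% for 2-nitrofluorene, and 0 for the other 5 compounds, where 184 (methapyrilene) to 1156 (Wy-14643) had an unadjusted p under 0.05. NNK and the 2-nitrofluorene set have controls with the same D numbers. The NNK control minus the other differed in Cyp1a1 by −0.42 ± 0.81 at 24 h and −0.01 ± 0.81 at 72 h (both adjusted p = 1). In that comparison 0 probe sets passed at either time, while 411 at 24 h and 419 at 72 h had an unadjusted p under 0.05.

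Around the members stand the receptor complex and other target genes of AhR. Of 6 genes of the receptor complex 4 were tested (Ahr itself, its partner Arnt, and the chaperone genes Hsp90ab1 and Ptges3), and 0 passed in any of the 16 comparisons of a compound with its control. For nifedipine at 72 h Ahr differed by 0.94 ± 1.03 (adjusted p = 0.723) and Arnt by 0.66 ± 0.56 (adjusted p = 0.61). There Ahr read 168, 128 and 143 units, against 81.4, 84.9 and 62.4 in the control. Arnt read 38.7, 35.2 and 34.1, against 23.7, 22.8 and 21.7. Neither gene overlapped, as was so for 6090 of the 18048 probe sets. The SE pools all 24 groups, and Ahr ran from 2.43 to 193 units over all arrays. In the 24 h control of the aflatoxin B1 set Ahr read 116, 37.5 and 4.14, the last at D number 3. Of 9 other target genes 5 were tested. Nqo1, a quinone reductase also known as a target of the oxidative stress regulator NRF2, read 3419, 1350 and 2182 units after 72 h of nifedipine, against 522, 182 and 262 in the control, with no overlap. It rose by 2.89 ± 0.52 (adjusted p = 0.000514), the 1 of the 5 that passed there, and the median of the 5 was 0.17, beside −0.07 over all probe sets. At 24 h Nqo1 read 1618, 1353 and 1150.2 under nifedipine and 2135, 1729 and 1738 under 2-nitrofluorene, against 357, 616 and 561 in their control. All 6 of these arrays were above the control. The differences were 1.45 ± 0.52 for nifedipine (adjusted p = 0.25) and 1.90 ± 0.52 for 2-nitrofluorene, which passed just under the threshold (adjusted p = 0.04998). At 72 h of 2-nitrofluorene the Nqo1 difference was 0.78 ± 0.52 (adjusted p = 0.785). Of the 5 target genes 5 were higher under 2-nitrofluorene at 24 h (median 0.56, beside −0.04 over all probe sets) and 4 at 72 h (0.38, beside −0.07). Such counts were not particular to the compounds with high Cyp1a1. Under methapyrilene at 24 h 5 were higher as well (0.28, beside 0.01), and under NNK at 72 h 4 were (0.42, beside −0.02). In the remaining comparisons with control 2 to 4 were higher.

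The other list members that passed did so under compounds with no passed rise of Cyp1a1. Nfe2l2, the gene of NRF2 itself, rose by 0.97 ± 0.16 at both 24 h and 72 h of NNK (adjusted p = 0.000168 and 5.35e-05) and by 0.55 ± 0.16 at 24 h of aflatoxin B1 (adjusted p = 0.033, and 0.0172 without the D number 3 arrays). Xdh, the gene of the purine enzyme xanthine dehydrogenase, fell by 1.32 ± 0.28 at 72 h of Wy-14643 (adjusted p = 0.0016, and 0.0009 without the D number 3 arrays). Under 2-nitrofluorene Xdh read 400, 431 and 411 units at 24 h, against 264, 364 and 282, and 327, 257 and 302 at 72 h, against 153, 192 and 179, with no overlap, yet neither difference passed (0.46 ± 0.28 and 0.75 ± 0.28, adjusted p = 0.614 and 0.353). Cyp2s1 and the amino acid transporter gene Slc7a5 passed in none of the 16. Aldh3a1, an aldehyde dehydrogenase gene that AhR ligands induce in rat liver cells, was too dim to be tested, at or under the floor on 26 of 72 arrays. It read 11.4, 7.79 and 13.1 units after 24 h of 2-nitrofluorene and 2.91, 7.16 and 5.62 after 24 h of nifedipine, against 1.23, 2.21 and 0.705 in the control. At 72 h it read 12.4, 21.6 and 21.5 under 2-nitrofluorene and 11.6, 6.83 and 25.1 under nifedipine, against 7.08, 7.47 and 5.72. Of these groups nifedipine at 72 h was the one that overlapped with the control. A lack of overlap was seen for 4186 (2-nitrofluorene, 24 h), 3341 (nifedipine, 24 h) and 4043 (2-nitrofluorene, 72 h) of the 18048 probe sets tested. All of the 24 h control values and the lowest 24 h value of nifedipine were under the floor. The highest Aldh3a1 value of any array, 43.9, was in the 72 h control of the aflatoxin B1 set. Hsp90aa1, Ugt1a6, Ugt1a7c and Gsta2 were read only by probe sets with several symbols and are not given.

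Markers of macrophages were lower under nifedipine, 2-nitrofluorene and Wy-14643 at 72 h. For nifedipine 0 of 9 were higher, 2 fell, and their median was −1.54, beside −0.07 over all probe sets, with a summed signal of 237 to 770 units, against 553 to 1536 in the control. For 2-nitrofluorene 0 of 9 were higher, 0 passed, and the median was −1.14, with 189 to 790 units. For Wy-14643, where Cyp1a1 was lower, 2 fell and the median was −1.65, with 87.6 to 666 units, against 361 to 1229, and without the D number 3 arrays 4 fell, with a median of −1.94. Of the hepatocyte markers 3 of 9 fell and 1 rose under Wy-14643, with a median of −0.44 (5 fell, with a median of −0.60, without those arrays). Their summed signal was 24051 to 29822 units under Wy-14643, against 34120 to 40234 in the control, with no overlap. The part of any of these cells in the Cyp1a1 differences was not tested.

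Across the 24 group means of log2 intensity, Cyp1a1 and Cyp1a2 were correlated with r = 0.495, and the other pairs of members with r between −0.30 and 0.33, all groups sharing arrays by D number and scaling. The genes with the pattern closest to Cyp1a1 were Cyb5a (r = 0.864), Sirt4 (0.844), Gcnt4 (0.844), Pgrmc1 (0.841) and Ugt2b34l1 (0.834), of 10174 genes compared. Cyb5a encodes cytochrome b5 and Pgrmc1 a haem-binding membrane protein, both of which are known to work with cytochrome P450 enzymes. Of the 5 genes named for Cyp1a1, 1 was again among the closest 5 over the 72 arrays. With Spearman's correlation over the group means 0 were. Those closest to Cyp1a2 were Cyp2d4 (0.917), a cytochrome P450 of drug metabolism, Cxcl9 (0.897), Esm1 (0.896), Tfr2 (0.895) and Pecam1 (0.894), the last an endothelial marker. Those closest to Tiparp were Skap2 (0.794), Vps11 (0.753), Ly96 (0.742), Nudcd2 (0.732) and Spsb2 (0.729). Those closest to the dim Cyp1b1 were Niban2 (0.847), Smtn (0.840), Cnn1 (0.838), Limd2 (0.819) and Arf3 (0.813). Of these 20 genes 4 were again among the closest 5 when taken over the 72 arrays.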

How the data were processed

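Each Affymetrix array read the total RNA of 1 sample. Per the submitters' processing notes the deposited intensity values were made with MAS5, with no version or settings given in the sources. The deposited table holds linear intensities for 31099 probe sets, and 0 of its columns stayed unused. Precision is limited by having 3 arrays in each group. A lack of overlap between a compound and its control was common. It held, in either direction, for 1342 (methapyrilene, 72 h) to 6090 (nifedipine, 72 h) of the 18048 probe sets tested.

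Lower values were set to 3.12 (the floor, at percentile 20 of all values) before taking log2, which understates changes of dim genes. After removal of 57 array controls, 18048 probe sets (58.0% of the table), those whose highest group mean was not under the median of the table, entered the limma fit (version 3.58.1, R 4.3.3, lmFit on 24 group means with 48 residual degrees of freedom, eBayes with an intensity trend). P-values were adjusted by Benjamini-Hochberg over all tested probe sets within each comparison, with a threshold of 0.05. Intervals are 95% intervals. The spread of a probe set was thus estimated jointly from the 24 groups. The fit was also run on simulated data. Noise there was drawn independently for each array, with no deviation shared by D number, so that run cannot show how the fit deals with such sharing. Groups came from the titles. The protocol speaks of 3 independent experiments per compound, and p-values measure the spread between these arrays.

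Members, gene lists and alternatives were chosen with earlier results of these data known. A gene was represented by its brightest probe set; every probe set of a member was named, and the 5 genes of most similar pattern by Pearson correlation. Between compound and control, arrays of equal D number deviated together, with every correlation of deviations above 0.1, for all compounds except aflatoxin B1 at both times. Between 24 h and 72 h this held in the controls of methapyrilene and of the aflatoxin B1 set. It did not hold in those of the 2-nitrofluorene set (−0.13 to −0.08) and of NNK (−0.09 to −0.02). The block by D number alone takes the D number to act alike at both times, and that within each time does not. Cyp1a1 and Cyp1a2 are related genes, and cross-hybridisation of their probe sets was not tested. Gene names came from the platform annotation, which gives 20826 probe sets a single symbol, 436 several, and 9780 no symbol. The alternatives were another floor, an added constant, other filters, quantile normalization, no trend, D-number blocks, fits on fewer groups and arrays left out.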

Additional observations from a re-analysis of the deposited data

Results flagged for a closer look

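For Cyp1a1 under methapyrilene every exposed array was below the control array of its D number at 24 h and above it at 72 h. The effect at 72 h minus that at 24 h was 0.85 on the log2 scale, and limma's test of this difference did not pass (adjusted p = 1). For Cyp1b1 under 2-nitrofluorene the same opposite signs in all pairs gave a difference of 0.36 (adjusted p = 1). Cyp1b1 was near the lower end of the signal range on these arrays.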

How the results depend on the processing

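Of the 3569 recomputed values of single probe sets under the alternatives, 3260 kept their sign and their side of the threshold, 59 lost a call, 27 gained one, 223 changed sign with no call on either side, and 0 called values changed sign. Differences of a member from its own control passed 5 times, 4 of them for Cyp1a1 and 1 for Tiparp. The number was 7 with the D number as a replicate block, 9 with the D number within each time as the block (chosen after seeing the data), and 4 to 6 with each array left out. Differences between compounds passed 10 times, 24 times with that second block and 7 to 17 times with each array left out. The class comparisons passed 0 times, 2 with the D number as a block, 2 with the D number within each time, 1 without the D number 3 arrays and 0 to 2 with each array left out. The change of effect from 24 h to 72 h passed 0 times, and 0 to 1 with each array left out. The change in the controls passed 1 time in every alternative run (1 to 1), and the difference between the NNK and 2-nitrofluorene set controls 0 times (0 to 0). For the genes of similar pattern, 4 of 20 were shared over the 72 arrays and 6 of 20 with Spearman's correlation. The cause of these shifts was not tested. For aflatoxin B1, where 1 of the 3 correlations of deviations was below 0 at each time and the others lay between 0.27 and 0.67, the Tiparp difference at 24 h had an adjusted p of 0.0229 with the D number as a block and 0.0166 with the D number within each time, and the Cyp1a1 difference at 72 h one of 0.048 with the second of these. The pairing changed no other call against control than those given beside their results. Leaving D number 3 out of single control sets and of the gene lists was chosen after seeing the data. The signal over background limits Ahrr.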
